A study of Homo sapiens with 5 samples.

Results

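The RNA levels of 10 genes were followed across nuclei and clusters of nuclei: SMARCA4, SMARCA2, ARID1A, ARID1B, ARID2, PBRM1, SMARCC1 and SMARCB1, which encode subunits of the SWI/SNF chromatin remodeling complexes, and STK11 and SIK1, a tumor suppressor kinase and a kinase that it activates. The genes were chosen by name, and they are 10 of 36601 genes in the matrix. The nuclei came from the human lung adenocarcinoma cell lines A549, HCC827, H838, H1975 and H2228, which were mixed in equal numbers, untreated as far as the labels say, and captured with the 10x Multiome protocol, which reads RNA and open chromatin (ATAC) of the same nucleus. The loaded droplets (GEMs) were divided into an 80% and a 20% portion, from each of which 1 library was made for RNA and 1 for ATAC. The values below are from the 80% portion unless the 20% portion is named. With 1 library of a kind per portion there were no replicates, so no difference carries a test, and the 20% portion is a second library of the same capture.

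SWI/SNF complexes use ATP to move or evict nucleosomes and so open regulatory DNA. SMARCA4 (BRG1) and SMARCA2 (BRM) are alternative ATPase motors, SMARCC1 and SMARCB1 are core subunits, ARID1A and ARID1B are alternative subunits of the canonical BAF form, and ARID2 and PBRM1 mark the PBAF form. Subunits of these complexes are often lost by mutation in lung adenocarcinoma, and A549 and H838 are known for inactivating alterations of SMARCA4. STK11 encodes LKB1, a kinase that is inactivated in A549 and that activates AMPK and related kinases. SIK1 is one of these kinases and holds the CRTC coactivators of CREB in the cytoplasm, and its own gene is a CREB target. A mutation need not lower the amount of RNA, and the RNA counts used here carry no information on mutations.

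The 80% matrix held 6557 nuclei with a median of 13306 RNA UMIs (unique molecules counted) and 8784 ATAC counts, and the 20% matrix held 1286 nuclei with medians of 10540.5 and 9156.5. Barcodes called in both portions numbered 159, which were 12.4% of the 20% and 2.42% of the 80% barcodes. Of the 80% nuclei, 387 (5.90%) were called doublets, and they were kept unless stated. The 10 genes together had 88620 UMIs in the 80% and 14568 in the 20% portion.

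Nuclei were clustered by RNA without the 10 genes, SIK1B and the listed genes described below, so that the values of these genes did not shape the clusters. The 5 clusters, numbered 0 to 4, held 2474, 1461, 1453, 840 and 329 nuclei, and 98.2% of nuclei fell in the matching cluster when the ATAC counts were clustered instead. Cluster 4 is called HCC827-like, because EGFR and its neighbors SEC61G, LANCL2 and VOPP1, which lie together on the amplified chromosome arm of HCC827, were all highest there. EGFR was at 7196 UMIs per 1000000 UMIs of the cluster (CPM) in cluster 4 and at most 461 CPM in the others. Cluster 1 had the highest level of all 5 positive markers fixed for A549, with ALDH1A1 at 5355 CPM and at most 197 CPM elsewhere. AKR1B10 and CPS1 were at 4218 and 96.1 CPM there and at most 464 and 14.2 CPM elsewhere. The margin was smaller for ALDH3A1 and AKR1C1, at 905 and 925 CPM in cluster 1 and 655 and 488 CPM in cluster 0. However, the marker rule expected MTAP and CDKN2A near 0 in A549. MTAP was at 51.6 CPM in cluster 1, and at 3.89 and 1.78 CPM in clusters 0 and 2. CDKN2A was at 13.5, 8.45 and 7.68 CPM in clusters 1, 0 and 2. Both were at 88.4 CPM or more in clusters 3 and 4. The A549 markers did not point to 1 cluster, so cluster 1 was not named after a line and is called ALDH1A1-high. Clusters 0, 2 and 3 were left unnamed, and nuclei are not assigned to A549, H838, H1975 or H2228 here. Of the 5 epithelial markers, the keratins KRT7, KRT8 and KRT18 were at 302 CPM or more in every cluster, while the adhesion genes EPCAM and CDH1 ranged from 23.8 to 758 CPM and from 4.86 to 200.2 CPM, both lowest in cluster 2. Of the 5 fibroblast markers, DCN and LUM were below 1 CPM in all clusters and PDGFRB was at most 2.61 CPM, but COL1A1 was at 242 CPM in cluster 0 and 82.7 CPM in cluster 3, and COL1A2 at 32.7 CPM in cluster 3.

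Cluster 3 had the largest share of doublet calls, at 11.1% against 0.688% to 7.76% in the others. Of its 840 nuclei, 815 fell in 1 cluster when the ATAC counts were clustered. With another random seed the same procedure gave 6 clusters, in which cluster 3 was largely divided between 2 clusters. One part, called 3a, had 467 nuclei, 11.3% of them doublet calls, and was high in EPCAM, at 681 CPM. EPCAM was higher still in the HCC827-like cluster, at 758 CPM. The other part, called 3b, had 362 nuclei, 4.70% of them doublet calls. It was high in TAGLN, at 239 CPM, and in COL1A2, at 74.5 CPM. Of the nuclei of 3b, 348 came from cluster 3 and 14 from cluster 0, while 25 nuclei of cluster 3 went to cluster 0. Of the epithelial markers, EPCAM, CDH1 and KRT7 were lower in 3b, at 35.1, 6.42 and 1157 CPM, with CDH1 and KRT7 at 195 and 2482 CPM in 3a. The keratins KRT8 and KRT18 were higher in 3b, at 1352 and 1787 CPM, against 889 and 1474 CPM in 3a. Of the other fibroblast markers in 3b, COL1A1 was at 140 CPM, below the 243 CPM of cluster 0 in this division. PDGFRB was at 6.06 CPM, LUM at 0.184 CPM and DCN at 0 CPM there.

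The promoters of SMARCA4, SMARCA2 and STK11 are shown because their RNA or start-site ATAC values carry comparisons below. That of SIK1, a gene that was barely detected, is shown beside them. The sequences are from RefSeq on GRCh38.p14, run 5′ to 3′ on the strand of the gene and hold 250 bases before to 50 bases after an annotated start. Capitals mark GC boxes (GGGCGG on either strand) in SMARCA4 and SMARCA2, and CRE half-sites (TGACG) and CCAAT boxes (CCAAT), also on either strand, in STK11 and SIK1. The windows are chr19:10960780-10961079 (+) for SMARCA4, chr9:2015097-2015396 (+) for SMARCA2, chr19:1205528-1205827 (+) for STK11 and chr21:43427082-43427381 (-) for SIK1.
SMARCA4: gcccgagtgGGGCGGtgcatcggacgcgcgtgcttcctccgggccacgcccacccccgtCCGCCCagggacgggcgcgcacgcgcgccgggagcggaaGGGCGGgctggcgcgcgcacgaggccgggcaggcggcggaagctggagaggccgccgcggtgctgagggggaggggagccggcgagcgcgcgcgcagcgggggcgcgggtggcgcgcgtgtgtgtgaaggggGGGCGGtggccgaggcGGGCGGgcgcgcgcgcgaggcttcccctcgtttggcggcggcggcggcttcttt
SMARCA2: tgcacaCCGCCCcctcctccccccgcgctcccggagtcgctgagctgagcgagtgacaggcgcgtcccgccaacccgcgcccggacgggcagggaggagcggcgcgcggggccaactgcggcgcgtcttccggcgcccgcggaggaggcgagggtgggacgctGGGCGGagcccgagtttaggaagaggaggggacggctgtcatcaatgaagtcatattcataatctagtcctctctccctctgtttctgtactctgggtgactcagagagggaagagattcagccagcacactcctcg
STK11: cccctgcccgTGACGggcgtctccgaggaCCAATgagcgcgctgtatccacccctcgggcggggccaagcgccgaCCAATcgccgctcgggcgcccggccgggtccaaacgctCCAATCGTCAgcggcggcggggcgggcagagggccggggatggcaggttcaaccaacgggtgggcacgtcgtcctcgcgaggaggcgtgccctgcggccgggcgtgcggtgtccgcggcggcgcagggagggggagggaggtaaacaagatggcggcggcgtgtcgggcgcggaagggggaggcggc
SIK1: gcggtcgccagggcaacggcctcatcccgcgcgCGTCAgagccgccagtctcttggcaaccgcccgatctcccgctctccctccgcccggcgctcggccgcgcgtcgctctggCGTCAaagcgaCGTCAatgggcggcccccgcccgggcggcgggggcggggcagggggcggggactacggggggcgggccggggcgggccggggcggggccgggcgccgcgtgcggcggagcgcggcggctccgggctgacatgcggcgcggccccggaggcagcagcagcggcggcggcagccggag
The SMARCA4 window held 5 GC boxes and the SMARCA2 window 2, and neither held a CRE half-site or a CCAAT box. GC boxes, not in capitals there, numbered 2 in the STK11 and 10 in the SIK1 window. The STK11 window held 3 CCAAT boxes, the last of them directly before 1 of its 2 CRE half-sites. The SIK1 window held 3 CRE half-sites, the element that CREB recognizes. Of 35116 promoter windows of this length, 24.6% held a CRE half-site, 34.6% a CCAAT box and 45.0% a GC box, so such matches are common and are given as a description. The windows of SMARCA4, SMARCA2 and STK11 lay inside ATAC peaks of the 80% portion, and the window of SIK1 did not, with a limit given below.

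SMARCA4 (ENSG00000127616, chromosome 19) varied most among the 8 SWI/SNF genes followed here. Its level was 119 CPM in cluster 0, 38.5 CPM in cluster 1, 70.4 CPM in cluster 2, 230 CPM in cluster 3 and 164 CPM in cluster 4. No neighbors in this order had overlapping 95% Poisson intervals, which were 35.4 to 41.8 CPM in cluster 1 and 222 to 238 CPM in cluster 3. These intervals, like all others given here, cover counting error at most. The highest cluster was 5.98-fold above the lowest. In the 20% portion the levels were 146, 49.4, 85.8, 275 and 210 CPM in clusters 0 to 4, in the same order, with a 5.56-fold range. All 5 clusters were higher in the 20% portion, by 0.26 to 0.36 on the log2 scale, a difference between the libraries that was smaller than the log2 difference between any neighbors in the order.

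SMARCA2 (ENSG00000080503, chromosome 9) ran within a narrower range. Its level was 43.5 CPM in cluster 0, 54.2 CPM in cluster 1, 54.8 CPM in cluster 2, 29.4 CPM in cluster 3 and 41.1 CPM in cluster 4. Clusters 1 and 2 could not be separated by counting error, nor could clusters 0 and 4. The clusters with the least SMARCA4 RNA were thus those with the most SMARCA2 RNA. Expressed as a ratio of UMIs, SMARCA4 to SMARCA2 was 2.73 in cluster 0, 0.710 in cluster 1, 1.29 in cluster 2, 7.83 in cluster 3 and 3.99 in cluster 4. In the 20% portion the ratios were 3.34, 0.878, 1.55, 9.02 and 4.52. The ratio is compared between clusters only, since gene length and intron content set its absolute size.

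The division of cluster 3 separated the ATPase genes further. SMARCA4 was at 179 CPM in 3a and at 323 CPM in 3b, and SMARCA2 was at 37.5 CPM in 3a and at 15.4 CPM in 3b. The ratio of UMIs was 4.76 in 3a (95% interval 4.23 to 5.38) and 20.9 in 3b (16.8 to 26.4). Both libraries showed this, with ratios of 5.16 and 26.3 in the 20% portion, the second from 10 UMIs of SMARCA2. With cluster 3 divided, 3a and the HCC827-like cluster had overlapping SMARCA4 intervals, and 3b was highest of all 6 in SMARCA4 and lowest in SMARCA2.

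**Figure D1:**
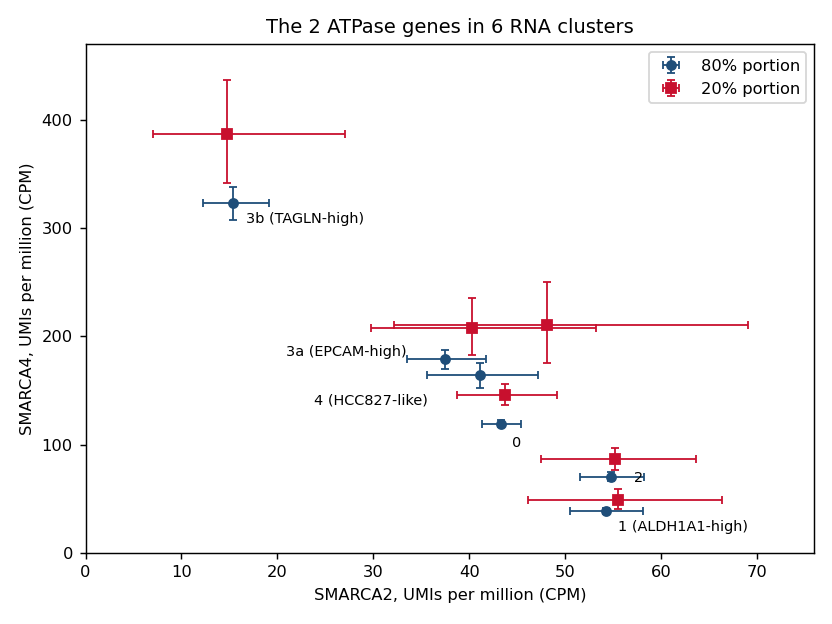
RNA levels of SMARCA2 (x axis) and SMARCA4 (y axis) in CPM, in the 6 RNA clusters of the second random seed, for the 80% portion (blue circles) and the 20% portion (red squares), with 95% Poisson intervals as bars. The TAGLN-high part of cluster 3 lies at 323 CPM of SMARCA4 and 15.4 CPM of SMARCA2, and the ALDH1A1-high cluster at 38.5 CPM and 54.2 CPM.

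Among the subunits that define the BAF form, ARID1A was at 107 CPM in cluster 2 and at 61.2 to 67.5 CPM in the other 4 clusters, whose neighbors in the order had overlapping intervals. ARID1B was at 319 CPM in cluster 2, 218 CPM in cluster 1, 209 CPM in cluster 0, 181 CPM in cluster 4 and 169 CPM in cluster 3. Both alternative ARID1 genes were therefore highest in cluster 2, by 1.74-fold and 1.89-fold over their lowest cluster. Of the PBAF genes, ARID2 was at 150 CPM in cluster 1, 134 CPM in cluster 2, 103 CPM in cluster 4, 87.3 CPM in cluster 3 and 86.0 CPM in cluster 0. PBRM1 had the smallest range of all, 1.34-fold, from 78.6 CPM in cluster 1 to 105 CPM in cluster 3, and cluster 2 (101 CPM) overlapped with cluster 3.

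Of the core subunits, SMARCC1 was at 137 CPM in cluster 0, 164 CPM in cluster 1, 375 CPM in cluster 2, 251 CPM in cluster 3 and 214 CPM in cluster 4, with no overlapping neighbors and a 2.73-fold range. SMARCB1 was at 27.5, 31.7, 36.5, 46.6 and 25.5 CPM in clusters 0 to 4, and only the highest of them, cluster 3, was separated from its neighbor. Cluster 2 thus combined low SMARCA4 RNA with the highest SMARCC1, ARID1A and ARID1B RNA.

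STK11 (ENSG00000118046, chromosome 19) was at 39.1 CPM in cluster 0, 13.8 CPM in cluster 1, 10.9 CPM in cluster 2, 32.3 CPM in cluster 3 and 23.0 CPM in cluster 4. Clusters 1 and 2 had overlapping intervals, which reached up to 15.8 and 12.4 CPM, and both lay below the other 3, the lowest of which had an interval of 19.0 to 27.7 CPM. In the 20% portion STK11 was at 41.7, 19.2, 12.9, 39.0 and 35.3 CPM in clusters 0 to 4. The range was 3.60-fold in the 80% and 3.23-fold in the 20% portion. The clusters with the least STK11 RNA were the same pair as those with the least SMARCA4 RNA, in the opposite order. Unlike for the ATPase genes, 3a and 3b had overlapping STK11 intervals, at 33.2 and 31.0 CPM.

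**Figure D2:**
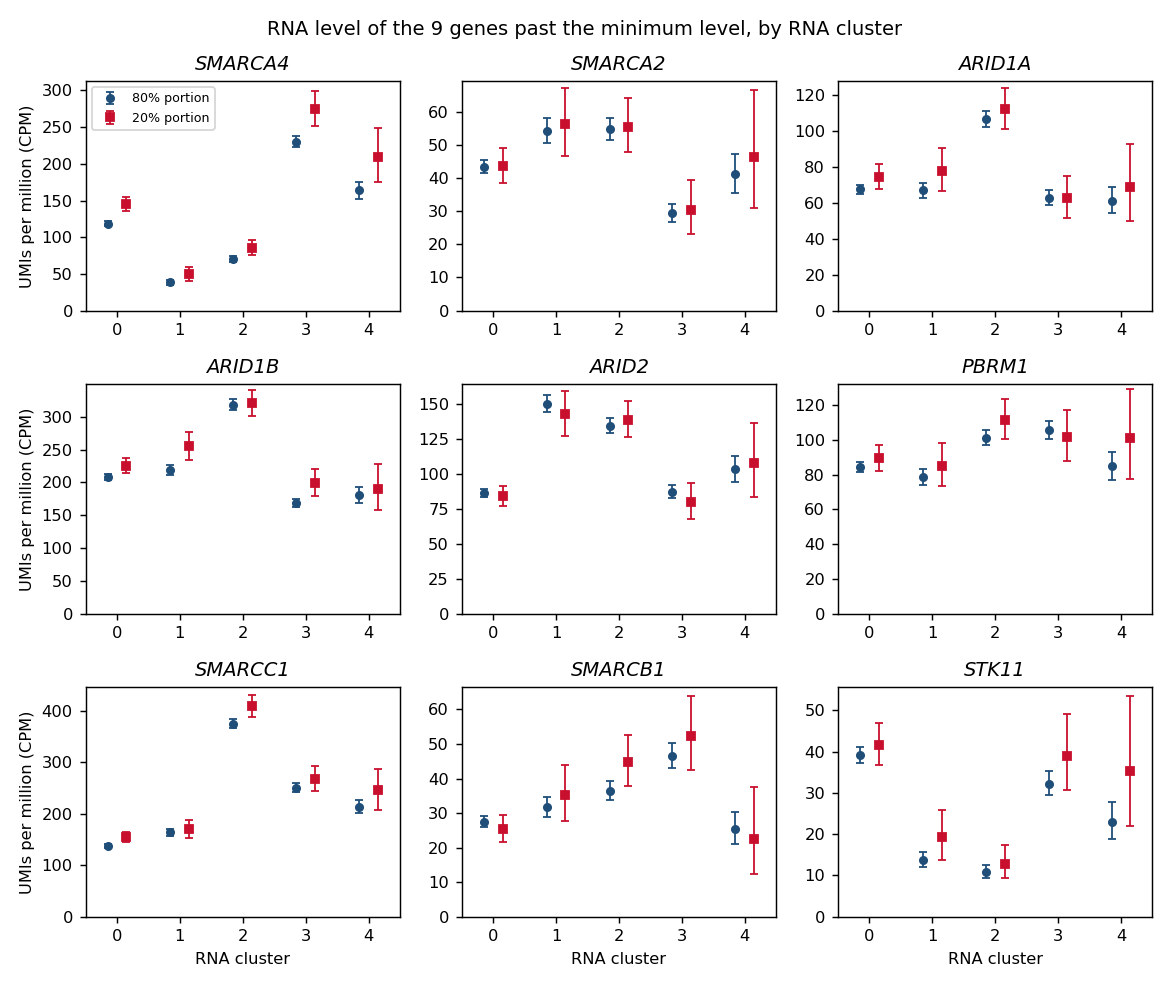
RNA level in CPM (y axis, from 0) of 9 genes in RNA clusters 0 to 4 (x axis), in the 80% portion (blue circles) and the 20% portion (red squares), with 95% Poisson intervals. SMARCA4 ranges from 38.5 to 230 CPM and STK11 from 10.9 to 39.1 CPM in the 80% portion, while PBRM1 stays between 78.6 and 105 CPM.

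SIK1 was barely detected. The row named SIK1 (ENSG00000142178, chromosome 21, 43414483 to 43427131, minus strand) had 15 UMIs in the whole 80% portion, with 1, 11, 2, 1 and 0 UMIs in clusters 0 to 4, and 2 UMIs in the 20% portion. A second row, SIK1B (ENSG00000275993, chromosome 21, 6111131 to 6123778, plus strand), had 25, 78, 14, 12 and 2 UMIs. GENCODE v44 marks the SIK1B locus as an artifactual duplication of SIK1, and 92.8% of the 90-base words of the SIK1 locus occur in the SIK1B locus, so reads can be split between these rows or dropped as ambiguous. The levels of both rows are therefore uncertain. Together they had 89 UMIs in cluster 1, or 6.01 CPM (4.83 to 7.40), and 26, 16, 13 and 2 UMIs in clusters 0, 2, 3 and 4, or 0.411 to 0.869 CPM, with no upper bound above 1.49 CPM.

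A gene was called high or low in a cluster where its CPM was over 2 times or under 0.5 times the mean of the other clusters, provided that its mean over clusters reached 10 CPM. Of the 10 genes 9 reached this level, and SIK1 did not. SMARCA4 was called low in cluster 1, where 11.4% of the 10565 genes tested were called low, and STK11 was called low in cluster 2, where 16.6% were. SMARCA4 was called high in cluster 3, where 4.13% of genes were. Over all clusters 2 of 45 values of the 9 genes were low, against 11.6% of the values of all genes, and 1 was high, against 5.89%. The median range between the highest and the lowest cluster was 1.86-fold for the 9 genes and 2.20-fold for all genes past the level. The genes were not matched for level, so these medians and counts are given as a description.

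The calls near the threshold depended on single choices. Without the doublet calls 4 values were low and 3 high, since SMARCA4 in cluster 2 (69.6 CPM) and STK11 in cluster 1 (13.3 CPM) were then also low, and SMARCC1 in cluster 2 and STK11 in cluster 0 also high. With cluster 3 divided, SMARCA4 in cluster 2 and SMARCA2 in 3b were low in addition to the first 2. SMARCA4 was then high in 3b but not in 3a, where it was at 0.32 on the log2 scale. With cluster 3 left out, an alternative added after seeing the data, 3 values were high, namely SMARCA4 in the HCC827-like cluster, SMARCC1 in cluster 2 and STK11 in cluster 0. The share of all genes called is given for the main setting only, so these changed counts are not read as a result about the genes.

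Nuclei were also scored one by one, after each was thinned to 5000 UMIs, which left out 101 of 6557 nuclei. The share of nuclei with a SMARCA4 UMI was then 44.2% in cluster 0, 15.9% in cluster 1, 30.8% in cluster 2, 67.9% in cluster 3 and 58.4% in cluster 4. Before thinning these shares were 81.5%, 28.0%, 58.2%, 94.5% and 83.3%. At least 2 SMARCA4 UMIs were left in 1.89% of the nuclei of cluster 1 and in 32.9% of those of cluster 3, so the differences between clusters were spread over many nuclei. For SMARCA2 the thinned shares were 18.8%, 21.3%, 24.0%, 10.6% and 13.1% in clusters 0 to 4, and 5.16% in 3b. For STK11 they were 17.1%, 6.51%, 4.81%, 15.4% and 8.13%, compared with 45.6%, 12.8%, 13.1%, 40.0% and 24.6% before thinning.

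RNA carried over between droplets can give UMIs in nuclei that do not express a gene, and the levels of ALDH1A1 outside cluster 1 were taken as a guide to its size, although doublets and expression of its own can add to them. ALDH1A1 had a UMI in 100% of the thinned nuclei of cluster 1, and in 34.2% to 35.7% of those of every other cluster. Its level in the lowest cluster was 9.08% of its level over all nuclei, and MTAP in its lowest cluster was at 4.28%. The same percentages of the level over all nuclei would be 10.6 and 4.98 CPM for SMARCA4 and 2.51 and 1.18 CPM for STK11. The 38.5 CPM of SMARCA4 in cluster 1 and the 10.9 CPM of STK11 in cluster 2 lay above these values. Both percentages come from the lowest cluster, cluster 2, so they are the smallest that each gene gives. ALDH1A1 was at 88.1 CPM there and at 197 and 195 CPM in clusters 0 and 3, from which the guide values would be larger, and at 971 CPM over all nuclei. Cluster 1 had the lowest median of UMIs per nucleus, at 9151 against 12670 in cluster 2, so a guide from cluster 2 need not apply to it. How much of the remaining signal was carry-over or doublets was not tested beyond the removal of doublet calls, which took SMARCA4 in cluster 1 to 33.9 CPM and STK11 in cluster 2 to 10.6 CPM.

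Open chromatin at the gene starts varied less than the RNA for SMARCA4. Its start on chromosome 19 (10960825) lay in a peak of 919 bp, chr19:10960390-10961308, which contains the promoter window shown above. This peak had 63.0, 50.9, 77.5, 76.5 and 57.8 counts per 1000000 ATAC counts (ATAC CPM) in clusters 0 to 4, a 1.52-fold range. Cluster 2, which was second lowest in SMARCA4 RNA, had the highest value at the start peak, and its interval (72.0 to 83.3) overlapped with that of cluster 3 (71.2 to 82.0). Since 90.1% of nonzero ATAC values were even, as when counts come in pairs, the Poisson intervals of ATAC values are too narrow. In the 20% portion, whose peaks were called separately, cluster 2 was also highest, at 102, and cluster 1 lowest, at 60.9. Between 3a and 3b the peak differed as the RNA did, with 55.1 and 113 ATAC CPM. With cluster 3 divided, 3b and not cluster 2 was thus highest, also in the 20% portion, at 141 ATAC CPM.

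The STK11 start peak (chr19:1205204-1206111) had 43.5, 37.0, 30.3, 48.3 and 23.3 ATAC CPM in clusters 0 to 4. Cluster 4 was lowest in ATAC and above clusters 1 and 2 in RNA, and cluster 1, with little STK11 RNA, was in the middle of the ATAC order. In the 20% portion the values were 56.6, 38.5, 43.6, 51.7 and 33.7 ATAC CPM, with cluster 4 again lowest and cluster 1 below cluster 2. The SMARCA2 start peak (chr9:2014739-2015633) had 22.8, 40.7, 31.8, 19.5 and 43.8 ATAC CPM, and 11.4 in 3b against 23.7 in 3a. With cluster 3 divided, SMARCA4 was highest in 3b in both RNA and start ATAC, and so was PBRM1, at 109 CPM and 45.5 ATAC CPM, with overlapping intervals. For 3 subunits the RNA and the start ATAC were highest in the same cluster with 5 clusters. These were SMARCC1, with 71.4 ATAC CPM in cluster 2 against 33.4 to 53.2, ARID1A, with 64.1 in cluster 2 against 30.7 to 35.9, and ARID2, with 60.9 in cluster 1 against at most 50.4. Over 5 clusters, Pearson's r between start ATAC and RNA was 0.988 for SMARCC1, 0.985 for ARID1A, 0.678 for ARID2, 0.611 for STK11, 0.537 for SMARCA2, 0.417 for SMARCA4, 0.368 for SMARCB1 and -0.232 for PBRM1, as descriptions of 5 points that share their nuclei. At the factor of 2, 0 of 40 start values of the 8 genes with a peak were high or low, where 3.29% and 5.77% of the values of 14417 genes were. With cluster 3 divided, the SMARCA2 start in 3b was under 0.5 times the mean of the others, at -1.51 on the log2 scale. The 347 peaks within 5 Mb of it were together at -1.08 there. The share of all gene starts called is given for 5 clusters only, so this value is a description. ARID1B and SIK1 had no peak within 1000 bp of the first annotated start. With peaks along all annotated starts counted, ARID1B had 80.9 to 104 ATAC CPM in the 5 clusters and SIK1 still had none. By this count SMARCA4 was highest in cluster 3, at 86.8 ATAC CPM against 86.4 in cluster 2. SMARCA2 was then highest in cluster 1, at 86.7 against 83.4 in cluster 4. The other genes with a start peak kept their highest cluster, ARID1A with 148 in cluster 2 and 77.5 to 114 in the others. ATAC reads of the SIK1 locus can also be ambiguous with its copy SIK1B, so the lack of a peak is not read as closed chromatin.

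**Figure D3:**
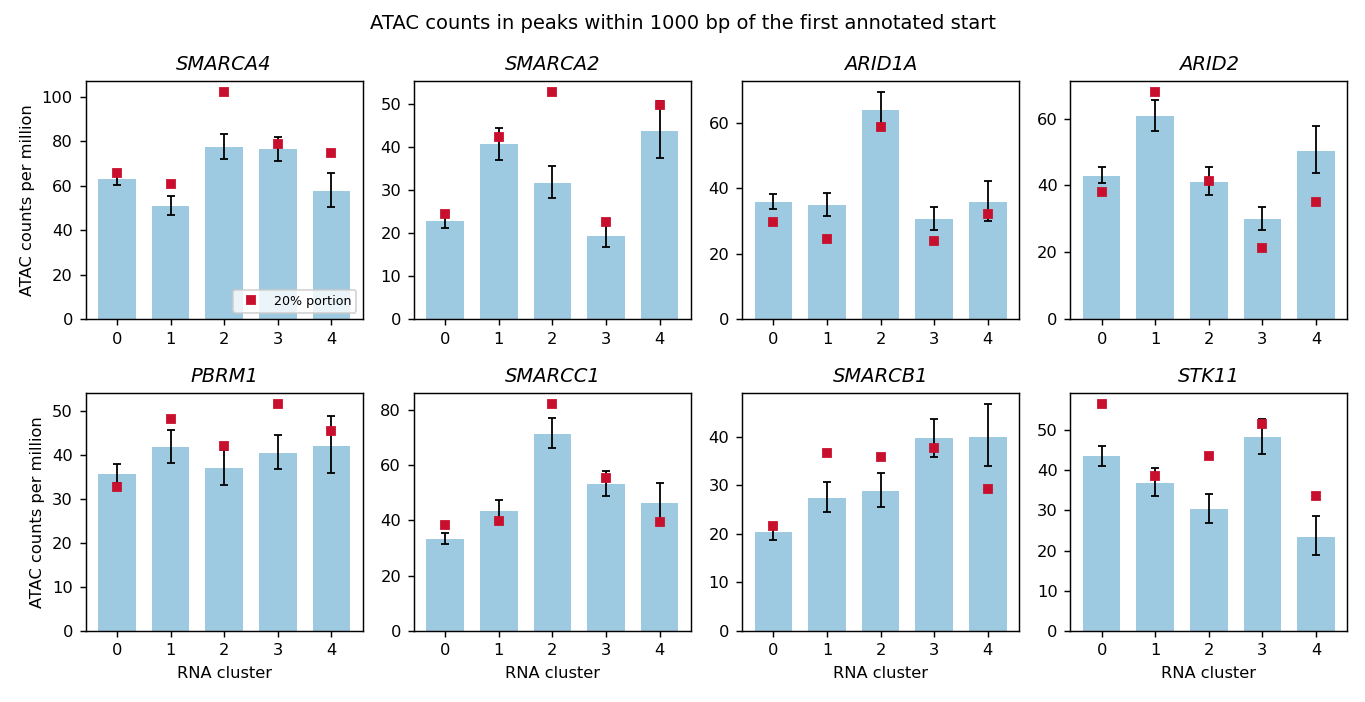
ATAC CPM (y axis, from 0) in peaks within 1000 bp of the first annotated start of 8 genes, in RNA clusters 0 to 4 (x axis). Bars are the 80% portion with 95% Poisson intervals and red squares the 20% portion. SMARCA4 is highest in cluster 2, at 77.5, and SMARCC1 and ARID1A are also highest there, at 71.4 and 64.1.

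Cell lines differ in the copy number of chromosome segments, so each gene was set beside its neighbors, all genes past 10 CPM whose start lies within 5 Mb, on the log2 scale of a cluster over the mean of the others. In cluster 1 SMARCA4 was at -1.92, and the median of its 144 neighbors was at -0.70. Only 13 of the 144 were lower than SMARCA4. The ATAC counts of the 1216 peaks in the same region were at -0.55. In cluster 2 SMARCA4 was at -0.97 while its neighbors had a median of 0.24 and the peaks stood at 0.24, and 10 of 144 neighbors were lower. In cluster 3 SMARCA4 was at 1.23, its neighbors at 0.47 and the peaks at 0.42. With 5 clusters, the region as a whole thus moved in the same direction as SMARCA4 in clusters 1 and 3. In cluster 2 the region moved in the opposite direction. So it did in cluster 4, with SMARCA4 at 0.52, its neighbors at -0.22 and the peaks at -0.21. In cluster 0 these values were -0.08, -0.14 and -0.02. After the division of cluster 3, the neighbors were at 0.73 and the peaks at 0.79 in 3b, where SMARCA4 was high. In 3a SMARCA4 was at 0.32, but its neighbors were at 0.002 and the peaks at -0.07. In cluster 2 SMARCA4 was then at -1.23, and the region moved less, with neighbors at 0.06 (quartiles -0.28 and 0.49) and peaks at 0.11.

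For STK11 the region had 92 neighbors. In cluster 2 STK11 was at -1.32 and its neighbors at -0.22, with 4 of 92 lower than STK11. In cluster 1 STK11 was at -0.93 and its neighbors at -0.41, with 8 of 92 lower. In cluster 0, where STK11 was highest, it was at 0.97 and its neighbors at 0.15. In cluster 3, by contrast, STK11 (0.57) and the median of its neighbors (0.52) were close. In 3b SMARCA2 was at -1.58, the median of its 22 neighbors at -0.88 and the ATAC counts of the region at -1.08, so the whole region on chromosome 9 was low there. SMARCC1 in cluster 2 was at 0.97 and its 94 neighbors at 0.43. ARID1A in cluster 2 was at 0.72 and its 71 neighbors at 0.47, while ARID1B was at 0.72 and its 28 neighbors at -0.05. Whether copy number accounts for the parts of these differences that the neighbors share was not tested.

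**Figure D4:**
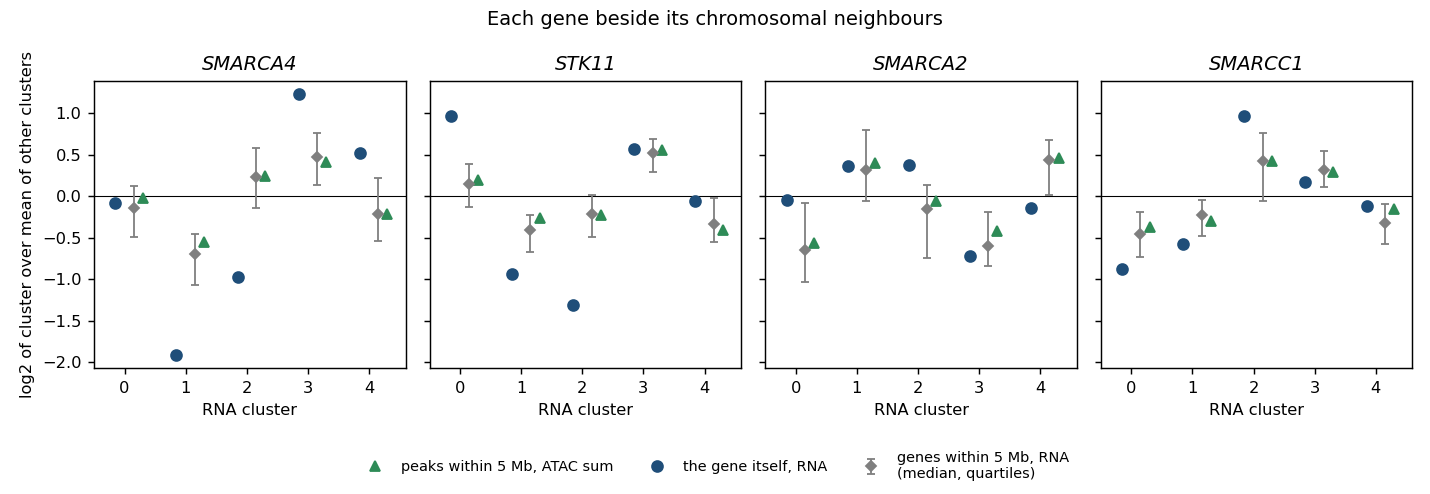
log2 of the level in a cluster over the mean of the other clusters (y axis) for 4 genes (blue circles), the median and quartiles of genes within 5 Mb (gray diamonds with bars) and the ATAC counts of peaks within 5 Mb (green triangles), by RNA cluster (x axis). SMARCA4 in cluster 2 lies at -0.97 and its neighbors at 0.24, and STK11 in cluster 2 lies at -1.32 and its neighbors at -0.22.

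The other subunits of SWI/SNF were followed as a list of 20 genes, of which 15 passed the level. Of these 1 was high in a cluster, where 27.5% of all genes were high in at least 1 cluster, and 0 were low, where 34.2% were. The high one was PHF10, a PBAF subunit, at 37.2 CPM in cluster 0 and 12.7 to 20.4 CPM in the others. The median range of the 15 genes was 1.83-fold, near the 1.86-fold of the 9 genes above. In clusters 1 and 2, where SMARCA4 RNA was lowest, 0 of the 15 were low, against 11.4% and 16.6% of all genes. The lowest of them in cluster 1 was at -0.91 on the log2 scale, near the threshold.

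Partners of LKB1 and the kinases that it activates had a wider median range than the SWI/SNF list. Of 16 genes 13 passed the level, and their median range was 3.22-fold, against 2.20-fold for all genes. Of the 13 genes, 5 were high and 6 low in at least 1 cluster, where 27.5% and 34.2% of all genes were. With only 13 genes, these counts are given as a description. CAB39 (MO25), the scaffold that holds LKB1 in its active complex, was at 59.9 CPM in cluster 1, 55.0 CPM in cluster 2 and 160 to 207 CPM in the other 3. PRKAA2, a catalytic subunit of AMPK, was at 4.01 CPM in cluster 3 and at 18.3 to 63.1 CPM elsewhere. MARK1, a kinase acting on microtubule-associated proteins, was at 37.1 CPM in cluster 2, 16.9 CPM in cluster 4 and 2.03 to 3.17 CPM in the other 3. NUAK2, an AMPK-related kinase, was at 25.7 CPM in cluster 1 and at 4.90 to 12.9 CPM elsewhere.

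The last list held genes that respond to CREB, together with the coactivators CRTC1, CRTC2 and CRTC3, which SIK1 opposes. Of 14 genes 13 were matched by symbol and 11 passed the level, and 9 were high and 9 low in at least 1 cluster, where 27.5% and 34.2% of all genes were. Their median range was 17.6-fold, against 2.20-fold for all genes. Like the other lists, this one was chosen with earlier results of these data known, so its counts are a description and no test of enrichment. Cluster 1 had 7 high genes, where 6.08% of all genes were high, and 0 low ones, where 11.4% of all genes were low. Cluster 2 had 2 high genes, where 8.24% of all genes were high, NR4A2, a nuclear receptor induced by cAMP, and CRTC3, a coactivator of CREB, and 5 low ones, where 16.6% of all genes were low. PTGS2 (COX-2) was at 98.3 CPM in cluster 1 and 1.20 to 13.6 CPM in the others, and PDE4B, a phosphodiesterase that degrades cAMP, at 331 CPM and 4.32 to 20.5 CPM. INSL4, an insulin-like peptide, was at 104 CPM in cluster 1 and 4.52 to 7.68 CPM in the others. CPS1, a urea cycle enzyme, was at 96.1 CPM in cluster 1 and 1.83 to 14.2 CPM in the others, but it is also 1 of the markers fixed for A549. The joint level of SIK1 and SIK1B was highest in the same cluster. The 5 genes low in cluster 2 were among the 7 high in cluster 1, and included PTGS2, PDE4B, INSL4 and CPS1. Clusters 0, 3 and 4 had 8 low genes each, where 10.2%, 9.06% and 10.7% of all genes were low. The mean of the others holds cluster 1, so a gene far higher there tends to be called low elsewhere. The overlap is thus no trait of cluster 2.

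**Figure D5:**
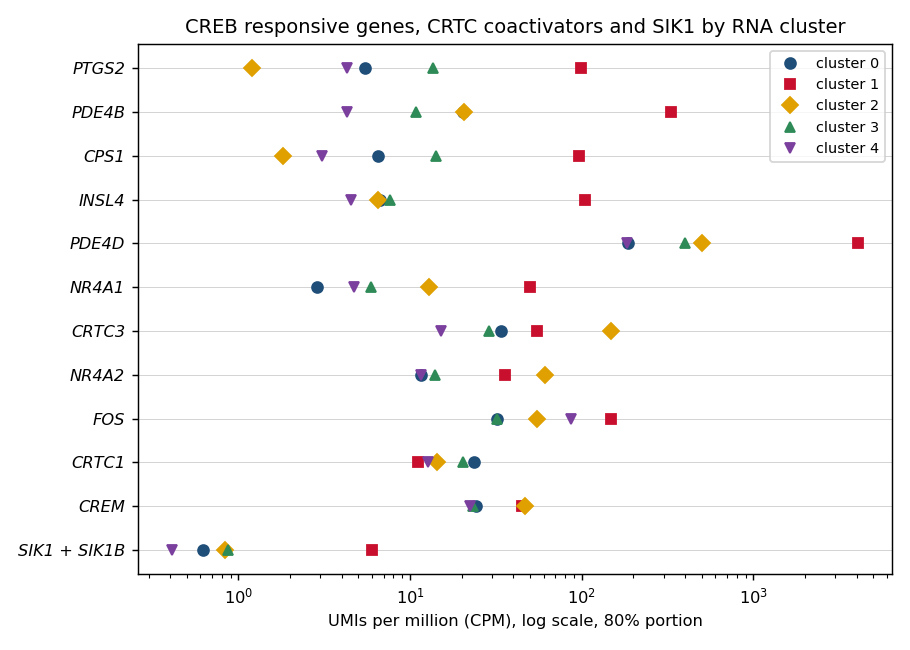
RNA level in CPM (x axis, log scale) of the 11 genes past 10 CPM in the list of CREB responsive genes and CRTC coactivators, and of SIK1 and SIK1B together, by RNA cluster (symbols), in the 80% portion. PDE4B lies at 331 CPM in cluster 1 and at most 20.5 CPM in the others, and the joint SIK1 level at 6.01 CPM in cluster 1 and at most 0.869 CPM in the others.

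The genes whose levels ran most like those of SMARCA4 over 10 points, the 5 clusters of both portions, included ZNF347 (Pearson's r 0.990) and MPP5 (0.987). ZNF347, a zinc finger gene, varied from 0.946 to 41.6 CPM. For STK11 they were CAMSAP1 (0.980), NAV1 (0.978) and GNA12 (0.976). NAV1 was at 14.6 CPM in cluster 2, 24.0 CPM in cluster 1 and 73.6 CPM in cluster 3. SMARCA4 and STK11 themselves had an r of 0.762 over these points. The points share their capture and, in pairs, their cluster, so these values describe likeness only.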

How the data were processed

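RNA and ATAC were read in the same nuclei by 1 library of each kind per portion. The authors deposited raw counts, with no normalization, as one matrix per portion made with Cell Ranger ARC 2.0.0 on GRCh38, holding RNA UMIs per gene and ATAC counts in peaks called per portion. The sources used here do not state which annotation was taken or whether introns were counted. Of the nonzero ATAC values 90.1% were even. The matrix of both portions and the long-read counts were not used here. No columns of values were left without a sample.

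The 10 genes and the lists were chosen with earlier results of these data known. The genes named are these 10, at most 4 per list past the factor 2 with the largest change, the 3 most alike for SMARCA4 and for STK11, the markers and SIK1B. A gene that the rule names is not reported here. Other listed genes named for a small count, and COL1A2, TAGLN and EPCAM in the division of cluster 3, were chosen or used there after their values were seen.

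Nuclei were clustered with Seurat 5.3.0 in R 4.3.3 (Louvain, 2000 variable genes, 30 components, 20 neighbors, random seed 0, the lowest resolution with at least 5 clusters, 0.05). Scrublet, as run by scanpy 1.11.5, marked doublets. Each nucleus of the 20% portion was placed in the cluster with the best correlated mean profile. Applied to the 80% portion, this placed 96.9% of nuclei where the clustering had. UMIs were summed per cluster and divided by the total of the cluster (CPM). Intervals are exact 95% Poisson intervals, and no test was made. Alternatives covered depth and doublet filters, seed, ATAC clusters, portion, shared barcodes, level, scaling, thresholds and windows.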

Additional observations from a re-analysis of the deposited data

How the results depend on the processing

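Of 68 values recomputed under other settings, 53 stayed within their limits and 15 moved. On the log2 scale of the highest over the lowest cluster the values as reported were 2.58 for SMARCA4, 1.85 for STK11, 0.90 for SMARCA2, a median of 0.84 for the other genes and 1.04 for start ATAC. Without doublet calls 4 values were under 0.5 times and 3 over 2 times the mean of the other clusters, and SMARCA4 was at 2.87. With random seed 1, which divides cluster 3, 4 values were under 0.5 times, SMARCA4 was at 3.07 and SMARCA2 at 1.83. With the mean of the CPM of single nuclei 2 values were over 2 times, and SMARCA4 was at 2.74. With cluster 3 left out, chosen after seeing the data, 3 values were over 2 times, SMARCA4 was at 2.09 and SMARCA2 at 0.41. With no minimum level 5 values were under 0.5 times and 2 over 2 times, the additional ones being SIK1, and with a factor of 1.5 there were 6 of each. The share of all genes called is given for the main setting only, so these counts describe the settings and not the genes. STK11 stayed between 1.69 and 1.94, its lowest value being that of the 20% portion. Scaling by the median ratio of genes shifted clusters by -0.02 to -0.11 and changed no call. No paired analysis was possible because no result comes from a test and each portion has 1 library of a kind. The main limits are the single capture, the unassigned cell lines, carry-over between droplets, and the few UMIs of SIK1, which its copy can take. Why values moved was not tested, except that fewer genes or clusters enter some settings by construction.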
